A study of Mus musculus with 6 samples.

Results

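The 10 genes described here encode transcription factors of the AP-1 group: Fos, Fosb, Fosl1, Fosl2, Jun, Junb, Jund, Atf3, Batf and Maff. They were chosen by gene symbol. All 10 were found among the 23283 symbols of the deposited tables, each as 1 RefSeq transcript, and all 10 passed the abundance filter that left 10106 genes for testing. The study cultured eosinophils of the small-intestinal lamina propria, taken from BALB/c mice of wild-type genotype, for 4 hours. GM-CSF, a cytokine that supports eosinophils, was added at 10 ng/ml to 3 cultures, and 3 others, called untreated, received none. All cells were ex vivo cultures, so no library represents eosinophils taken directly from tissue. Neither the age of the mice, the method of isolation nor the number of animals behind a culture is given in the sources used here, so p-values measure the spread between these cultures.

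AP-1 is a family of dimers that form through a basic region and a leucine zipper, the bZIP domain, and bind short palindromes in DNA. JUN proteins can pair with each other or with FOS proteins, whereas FOS proteins need a JUN partner. ATF3 and BATF also join JUN proteins, and MAFF is a small MAF protein without its own activation domain. Many of these genes are immediate early genes, which stimuli switch on within minutes and whose short-lived mRNAs then decay. In myeloid cells AP-1 is known as an endpoint of the mitogen-activated protein kinases that cytokine receptors engage.

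GM-CSF cultures held less mRNA of Fos, Fosb and Jun and more of Atf3 and Maff. Values are FPKM, fragments normalized for transcript length and sequencing depth, and the test was limma on log2(FPKM + 1) over all 10106 genes. Of the 10 members, 3 fell and 2 rose at an adjusted p under 0.05, and 5 did not pass. Among all tested genes 14.2% fell and 7.68% rose, 21.9% together. The same 3 members were lower and the same 2 higher without overlap between the groups, where 26.0% and 13.2% of all tested genes were, 39.2% together. The members' median log2 fold change was 0.05, against -0.05 for all tested genes.

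The 250 bases before the start of the 5 genes that changed are shown because they hold the sites through which AP-1 and CREB proteins are known to act on some of these genes. They come from RefSeq on GRCm38, the assembly also named mm10, and are read 5′ to 3′ on the gene's strand. Capitals mark matches to the cyclic AMP response element (CRE), to a form of it with any base at 1 position, or to its core. For Maff, which has 3 listed starts, the window before the first start, with no match, and the window before the next start, with the full CRE, are both shown. That next window lies within the span given for Maff below. The listed start of Fosb also lies inside its gene span, which ends at 19310118, so part of its window is within the gene.
Fos, chr12:85473640-85473889, plus strand: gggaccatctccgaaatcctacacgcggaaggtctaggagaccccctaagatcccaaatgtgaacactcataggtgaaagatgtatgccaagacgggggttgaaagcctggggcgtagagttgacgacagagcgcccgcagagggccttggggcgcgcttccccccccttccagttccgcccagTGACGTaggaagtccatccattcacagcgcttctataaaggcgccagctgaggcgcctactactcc
Fosb, chr7:19310046-19310295, minus strand: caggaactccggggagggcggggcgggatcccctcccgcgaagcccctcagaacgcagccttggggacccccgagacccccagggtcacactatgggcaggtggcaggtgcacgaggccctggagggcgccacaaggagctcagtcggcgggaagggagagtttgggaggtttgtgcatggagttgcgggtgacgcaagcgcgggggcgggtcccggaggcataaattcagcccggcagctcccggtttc
Jun, chr4:95052223-95052472, minus strand: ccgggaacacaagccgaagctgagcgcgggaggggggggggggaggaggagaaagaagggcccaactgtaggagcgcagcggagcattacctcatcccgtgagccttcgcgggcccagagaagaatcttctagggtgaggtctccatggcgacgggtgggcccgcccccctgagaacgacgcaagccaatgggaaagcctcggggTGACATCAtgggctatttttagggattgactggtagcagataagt
Atf3, chr1:191183334-191183583, minus strand: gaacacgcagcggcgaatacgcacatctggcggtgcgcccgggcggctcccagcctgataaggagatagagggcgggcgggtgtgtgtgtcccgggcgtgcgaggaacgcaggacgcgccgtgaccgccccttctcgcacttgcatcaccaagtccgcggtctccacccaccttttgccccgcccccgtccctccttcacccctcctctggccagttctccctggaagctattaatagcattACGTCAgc
Maff, chr15:79346371-79346620, plus strand: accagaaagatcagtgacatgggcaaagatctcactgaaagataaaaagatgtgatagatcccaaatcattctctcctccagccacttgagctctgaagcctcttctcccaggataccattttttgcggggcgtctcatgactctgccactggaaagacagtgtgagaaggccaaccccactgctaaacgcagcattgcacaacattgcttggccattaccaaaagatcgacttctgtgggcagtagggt
Maff, chr15:79347270-79347519, plus strand: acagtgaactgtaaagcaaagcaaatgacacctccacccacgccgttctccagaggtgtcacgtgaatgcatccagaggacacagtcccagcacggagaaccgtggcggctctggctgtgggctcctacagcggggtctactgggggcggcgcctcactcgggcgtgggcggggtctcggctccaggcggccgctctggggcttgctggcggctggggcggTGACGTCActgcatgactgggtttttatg

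Promoters were listed for 9 of the 10 members, all but Fosl1, as 11 windows because Maff has 3. Each was searched on both strands for 6 motifs. The AP-1 site TGACTCA was in 0 of the 11 windows and in 4.46% of all 32851 promoters of the same length. The full CRE, TGACGTCA, was in 1, the latter of the Maff windows shown, 29 bases before its start, and in 1.55% of all promoters. The form TGACNTCA, which includes the CRE, was in 3 windows and 7.49% of all promoters. Jun and the remaining Maff window, not shown, match it as TGACATCA, each 45 bases before its start. The core TGACGT, which overlaps the CRE, was in 4 windows and 6.47% of all promoters. Fos has it 66 bases and Atf3 8 bases before the start, and so does Batf, whose level did not pass, at 98 bases. The STAT palindrome TTCNNNGAA was in 0 of the 11 windows and 7.02% of all promoters. The serum response element was in 0 windows and 1.47%. The forms TGACNTCA and TGACGT were added after the promoters had been seen. Fosb matched none of the 6. A match describes letters only, and sites further upstream lie outside these windows.

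Fos (chromosome 12, 85473890 to 85477274, GRCm38) measured 216.9, 219.7 and 182.1 FPKM in the untreated libraries, given here and below in the order of replicates 1, 2 and 3, and 166.7, 151.1 and 122.2 FPKM with GM-CSF. All 3 GM-CSF values lay below the lowest untreated value, and replicate 3 was the lowest of its group in both. The means were 206.2 ± 21.0 and 146.6 ± 22.6 FPKM (SD, n = 3 each), a level 1.41-fold lower with GM-CSF (limma log2 fold change -0.50, SE 0.13, adjusted p = 0.0346). Here, as in all these bulk libraries, fewer cells that express a gene and less of its RNA per cell cannot be told apart.

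Fosb (chromosome 7, 19302696 to 19310118), whose product resembles FOS and carries a transactivation domain, was far less abundant. Its untreated libraries held 8.85, 8.79 and 7.61 FPKM and its GM-CSF libraries 5.94, 5.50 and 3.70 FPKM. The groups did not overlap, and the mean was 1.67-fold lower with GM-CSF (limma log2 fold change -0.66, SE 0.15, adjusted p = 0.0256). This was the largest change among the 10 members, and it ranked 664 among all tested genes by the size of its log2 fold change.

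The FOS-related genes Fosl1 and Fosl2, which encode FRA1 and FRA2 and lack the strong activation domain of FOS, did not pass. Fosl2 measured 42.8, 41.7 and 39.9 FPKM untreated and 47.5, 44.9 and 41.2 FPKM with GM-CSF, and the groups overlapped (limma log2 fold change 0.10, SE 0.06, adjusted p = 0.315). Fosl1 was the lowest member, with 1.40, 1.28 and 1.22 FPKM untreated and 2.18, 1.32 and 0.94 FPKM with GM-CSF (limma log2 fold change 0.08, SE 0.18, adjusted p = 0.812). Its GM-CSF values spanned the whole untreated range. They rest on roughly 33.3 to 84.3 reads a library, against at least 292 reads for any other member, and its SE includes the wide spread of the GM-CSF libraries. Summed over the 4 FOS genes, Fos itself made up 80.3%, 80.9% and 78.9% of the FPKM in untreated libraries and 75.0%, 74.5% and 72.7% with GM-CSF.

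JUN proteins are the partners through which FOS proteins bind DNA. Jun (chromosome 4, 95049036 to 95052222) measured 57.0, 64.4 and 61.7 FPKM untreated and 50.5, 49.9 and 38.9 FPKM with GM-CSF. The highest GM-CSF value was below the lowest untreated one, and GM-CSF replicate 3 stood below its group. The mean was 1.32-fold lower with GM-CSF (61.1 ± 3.75 and 46.4 ± 6.52 FPKM, SD, n = 3 each; limma log2 fold change -0.40, SE 0.11, adjusted p = 0.0415).

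Junb, whose product can oppose JUN at some sites, was more abundant than Jun and showed no shift. It measured 116.7, 134.7 and 118.8 FPKM untreated and 138.6, 135.0 and 102.9 FPKM with GM-CSF (limma log2 fold change 0.01, SE 0.12, adjusted p = 0.952). Its GM-CSF libraries included both the highest and the lowest of the 6 values. The sign of this estimate turned negative, to between -0.06 and -0.01, without untreated replicate 1 or 3 or GM-CSF replicate 1 or 2. Jund, the JUN gene that is typically expressed without stimulation, measured 72.4, 84.7 and 82.8 FPKM untreated and 94.6, 100.8 and 72.9 FPKM with GM-CSF. GM-CSF replicates 1 and 2 were above all untreated libraries and replicate 3 was among them (limma log2 fold change 0.15, SE 0.13, adjusted p = 0.468). Without GM-CSF replicate 3 its log2 fold change was 0.29 (limma adjusted p = 0.0640).

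Atf3 and Maff went the other way. Atf3 (chromosome 1, 191170296 to 191183333), a stress-induced gene whose product restrains many inflammatory promoters, measured 178.7, 177.0 and 147.2 FPKM untreated and 241.9, 223.5 and 195.6 FPKM with GM-CSF. Every GM-CSF library exceeded every untreated one. The mean went from 167.6 ± 17.7 to 220.3 ± 23.3 FPKM (SD, n = 3 each), 1.31-fold (limma log2 fold change 0.39, SE 0.10, adjusted p = 0.0386).

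Maff (chromosome 15, 79346621 to 79359078), whose product pairs with itself or with NFE2-related and BACH proteins at sites that overlap AP-1 elements, measured 43.4, 43.7 and 34.9 FPKM untreated. With GM-CSF it measured 66.0, 56.9 and 50.2 FPKM, again without overlap. It rose 1.42-fold (limma log2 fold change 0.49, SE 0.12, adjusted p = 0.0326). Replicate 3 was the lowest of its group for Maff and Atf3 too, in both groups.

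Batf (chromosome 12, 85686720 to 85709087), which encodes a small bZIP protein that pairs with JUN proteins and IRF factors in lymphocytes and dendritic cells, measured 23.9, 21.2 and 25.0 FPKM untreated and 22.4, 21.5 and 20.7 FPKM with GM-CSF. The groups overlapped (limma log2 fold change -0.11, SE 0.07, adjusted p = 0.328). Of cells in which Batf is well known, T cell and B cell markers had low sums that were lower with GM-CSF. Sums of the macrophage and dendritic cell list overlapped, at 134.6 to 152.8 FPKM untreated and 128.8 to 138.2 FPKM with GM-CSF. Most of that sum was Cd68, which did not pass. Of the 4 genes of that list tested, 3 fell: Csf1r (-0.86), Apoe (-0.63) and Lyz2 (-0.42). Lyz2 kept its call in 4 of 15 alternatives. Among all tested genes 14.2% fell. The 8 matched T cell markers summed to between 29.7 and 30.6 FPKM untreated and between 16.1 and 19.0 FPKM with GM-CSF, and 4 of the 5 tested fell, led by Lck (log2 fold change -0.96), Cd3e (-0.75) and Cd3g (-0.65). The 8 B and plasma cell markers summed to between 31.9 and 39.1 FPKM untreated and between 17.1 and 18.1 FPKM with GM-CSF, and all 5 tested fell, led by Igj (-0.88), Cd79b (-0.88) and Mzb1 (-0.81). Mzb1, with a GM-CSF mean of 0.725 FPKM, passed the filter only through the untreated libraries, and Ms4a1, Pax5 and Blk were under it. Igj kept its call in 4 of 15 alternatives, losing it without untreated replicate 1 or GM-CSF replicate 1, 2 or 3. Mzb1 kept its call in 6 of 14, losing it without replicate 2 or 3 of either group. Cd3d, the T cell marker that fell least (-0.39), kept its call in 6 of 15 and lost it without any 1 library other than untreated replicate 2. None of these markers was at 0 in every library, and their part in the values of Batf was not tested. Of the IRF partner genes of BATF, Irf4 stayed under the filter, at 0.37 to 1.14 FPKM over the 6 libraries. Irf8 fell from a mean of 1.48 to 0.590 FPKM (log2 fold change -0.63, limma adjusted p = 0.0227), a call that ended without GM-CSF replicate 1, 2 or 3. Its GM-CSF mean lay under the filter, which it passed only through the untreated libraries, and it was tested in 11 of 15 alternatives.

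**Figure D1:**
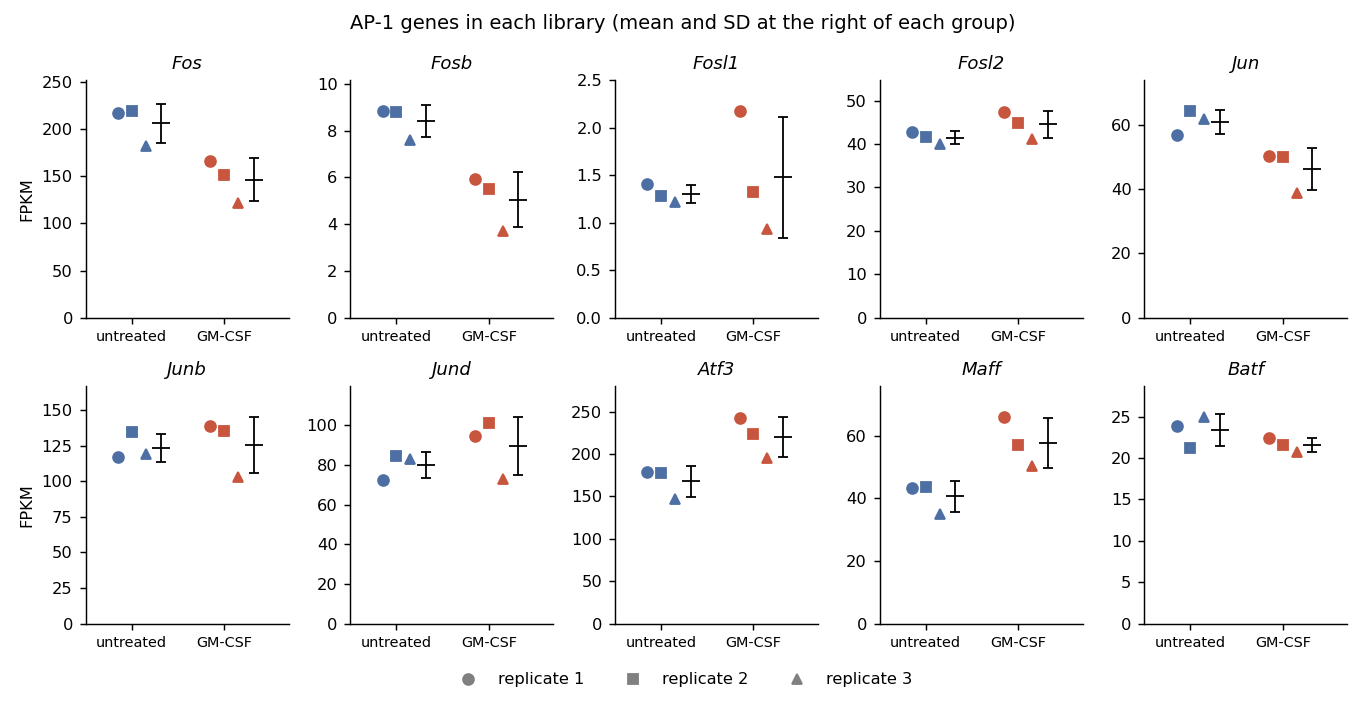
FPKM of each AP-1 gene (vertical axes, from 0) in 3 untreated and 3 GM-CSF libraries, with marker shapes for replicates 1 to 3 and the mean and SD beside each group. Fos, Fosb and Jun are lower and Atf3 and Maff higher with GM-CSF without overlap, and replicate 3 is the lowest GM-CSF value of all 10 genes.

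Among all genes that passed, the median absolute log2 fold change was 0.42. Fosb (-0.66), Fos (-0.50) and Maff (0.49) changed by more than that, and Jun (-0.40) and Atf3 (0.39) by less. In all, 1695 genes had a smaller adjusted p than any AP-1 member. Fos, Fosb, Jun, Atf3 and Maff kept their direction under all 15 alternatives run, but their adjusted p values, 0.0256 to 0.0415, lie close to the threshold. Leaving out 1 library ended the call of Fos without untreated replicate 1 (limma adjusted p = 0.0974) or 2 (0.110) and without GM-CSF replicate 2 (0.0733) or 3 (0.0559). That of Fosb ended without untreated replicate 1 (0.0769) or 2 (0.0829). Jun lost its call without untreated replicate 1 (0.0618), 2 (0.126) or 3 (0.107) or GM-CSF replicate 2 (0.0553). For Atf3 this happened without untreated replicate 1 (0.0557), 2 (0.0699) or 3 (0.0842) and without GM-CSF replicate 1 (0.107) or 2 (0.103). For Maff the same libraries gave 0.0546, 0.0573, 0.0745, 0.0801 and 0.0804. Without both replicate 3 libraries, Fos, Fosb, Atf3 and Maff passed and Jun did not (0.0889).

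**Figure D2:**
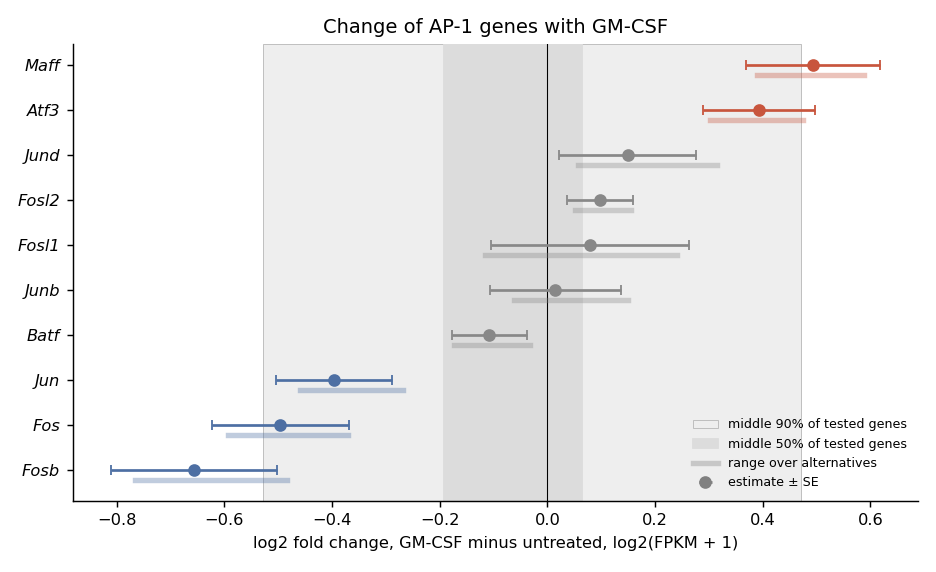
Log2 fold change of each AP-1 gene on the log2(FPKM + 1) scale (horizontal axis, points with SE) with the range over 15 alternatives as a pale bar and the spread of all 10106 tested genes as grey bands. Red genes rose, blue genes fell and grey genes did not pass; Maff (0.49) and Fosb (-0.66) lie outside the range from the 5th percentile (-0.53) to the 95th (0.47) of tested genes.

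FPKM is scaled by length, so the members can be ranked within a library, and a rank needs no scaling between libraries. Levels of different members compare only roughly. In untreated replicate 1, Batf (23.9 FPKM), Fos (216.9) and Atf3 (178.7) lay above their deposited confidence intervals, 17.1 to 21.8, 192.8 to 202.8 and 157.5 to 166.5. The longer Fosl2 (42.8) lay inside its own, 40.5 to 43.5. The reason was not tested. In every untreated library the order of levels began Fos, Atf3, Junb, Jund, Jun. In every GM-CSF library it began Atf3, Fos, Junb, Jund, Maff. Fos was thus the most abundant AP-1 mRNA in all 3 untreated cultures and Atf3 in all 3 with GM-CSF. Maff was below Jun in all 3 untreated libraries and above it in all 3 with GM-CSF. Batf, Fosb and Fosl1 held the last 3 places in all 6 libraries. Over the untreated libraries the neighbours Maff and Fosl2 overlapped. With GM-CSF, Fos overlapped Junb, Maff overlapped Jun and Jun overlapped Fosl2.

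The proportions of Atf3 and Maff to Fos separated the groups, which the levels had already fixed. Atf3 and Maff were higher and Fos lower with GM-CSF without overlap, so neither ratio could overlap. Untreated libraries gave an Atf3 to Fos ratio of 0.824, 0.806 and 0.808, and GM-CSF libraries one of 1.45, 1.48 and 1.60, a mean 1.86-fold higher. Maff over Fos was 0.200, 0.199 and 0.191 untreated and 0.396, 0.377 and 0.411 with GM-CSF, 2.00-fold higher on average. Replicate 3, which was low in both genes of each pair, did not stand apart from the groups' separation in these ratios.

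Within the JUN genes, Jun made up 23.2%, 22.7% and 23.4% of the summed FPKM of Jun, Junb and Jund in untreated libraries. With GM-CSF its share was 17.8%, 17.5% and 18.1%. The sum itself overlapped between groups, at 264.4 ± 18.9 FPKM untreated and 261.4 ± 40.5 FPKM with GM-CSF (SD, n = 3 each). Fos over Jun, by contrast, overlapped between the groups, at 3.39 ± 0.427 and 3.16 ± 0.140 (SD, n = 3 each). These ratios were picked after the levels had been seen and are given as descriptions, and a ratio shows unequal change without saying which gene moved. With 3 libraries against 3, an exact two-sided permutation test of any 1 of them could not go below p = 0.1.

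**Figure D3:**
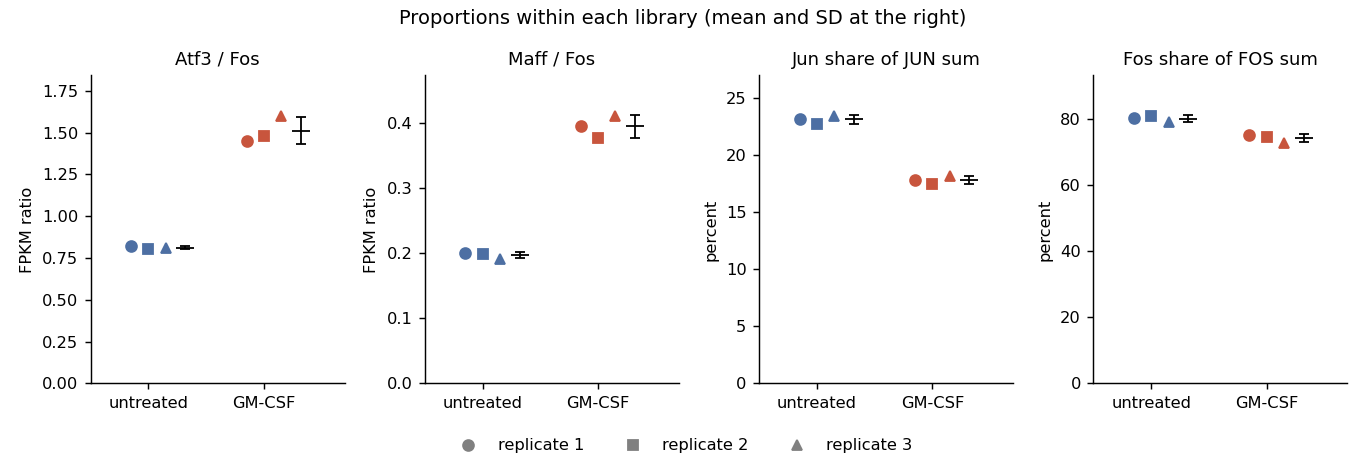
FPKM ratios of Atf3 and Maff to Fos, and the percent shares of Jun in the JUN sum and of Fos in the FOS sum, in each library (vertical axes from 0; marker shapes for replicates, mean and SD beside each group). The groups separate in all 4 panels, with Atf3 over Fos at 0.813 ± 0.00997 untreated and 1.51 ± 0.0795 with GM-CSF. For the ratios to Fos this follows from the levels of the genes, which did not overlap.

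Replicate 3 was low for AP-1 genes, more so with GM-CSF, while the median tested gene was not low. It was also the library of lowest depth in its group, at 0.917 gigabases untreated and 0.820 with GM-CSF. In GM-CSF replicate 3 all 10 members had the lowest value of their group, where 30.6% of all tested genes did. In untreated replicate 3 this held for 6 members, against 25.4% of tested genes, and the same 6 (Fos, Fosb, Fosl1, Fosl2, Atf3 and Maff) were lowest in both groups, against 9.98%. The difference of replicate 3 from the mean of replicates 1 and 2, on the log2(FPKM + 1) scale, had a median of -0.37 over the members in the GM-CSF group and 0.01 over all tested genes. In the untreated group these medians were -0.08 and 0.04. Fosb, Fosl1, Jund and Junb departed most in the GM-CSF group, by -0.52, -0.49, -0.42 and -0.41. The departures of Atf3 and Maff were of like size in both groups, at -0.27 and -0.25 for Atf3 and -0.31 and -0.28 for Maff, untreated first. Other immediate early genes shared part of this pattern. Of 15 tested, 13 were lowest in GM-CSF replicate 3 (median difference -0.27) and 6 in untreated replicate 3 (median 0.01). What set these libraries apart was not tested.

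**Figure D4:**
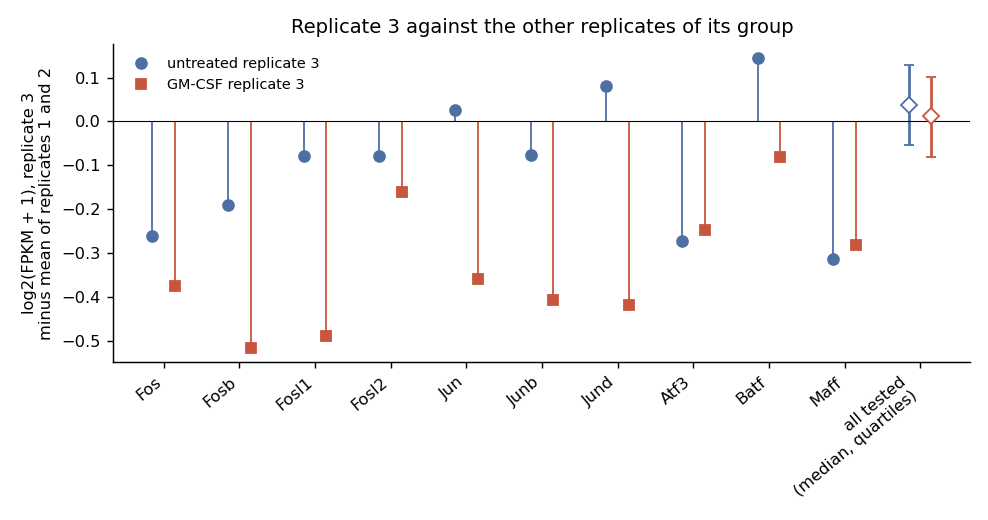
Difference of replicate 3 from the mean of replicates 1 and 2 of its group on the log2(FPKM + 1) scale (vertical axis) for each AP-1 gene, with the median and quartiles of all 10106 tested genes at the right. All 10 GM-CSF squares lie below 0, while 7 of the 10 untreated points do.

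Other bZIP genes, from a list of 30 possible partners and relatives, changed in both directions. Of 23 tested, 4 rose, 4 fell and 15 did not pass (median log2 fold change 0.03), where 7.68% of all tested genes rose and 14.2% fell. Nfil3, a bZIP repressor known for its role in lymphoid development, rose most, from 32.1, 31.4 and 31.2 FPKM untreated to 74.5, 81.0 and 77.9 FPKM with GM-CSF (limma log2 fold change 1.27, SE 0.04, adjusted p = 1.15e-05). Cebpb, a C/EBP factor of myeloid activation, measured 145.9, 145.3 and 134.9 FPKM untreated and 252.0, 246.9 and 175.8 FPKM with GM-CSF (limma log2 fold change 0.64, SE 0.14, adjusted p = 0.0184). Its GM-CSF replicate 3 was low like that of the AP-1 genes, and its call ended without untreated replicate 2 or 3 or GM-CSF replicate 1 or 2. Cebpe, a factor of granulocyte maturation, fell by 0.60 on the log2 scale. The other members that passed, named after their values were seen, were Bach1 (0.53) and Crem (0.43), which rose, and Jdp2 (-0.58), Tef (-0.53) and Nfe2 (-0.26), which fell. The call of Crem ended without GM-CSF replicate 1, and that of Nfe2 without untreated replicate 2 or 3 or GM-CSF replicate 1 or 3.

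**Figure D5:**
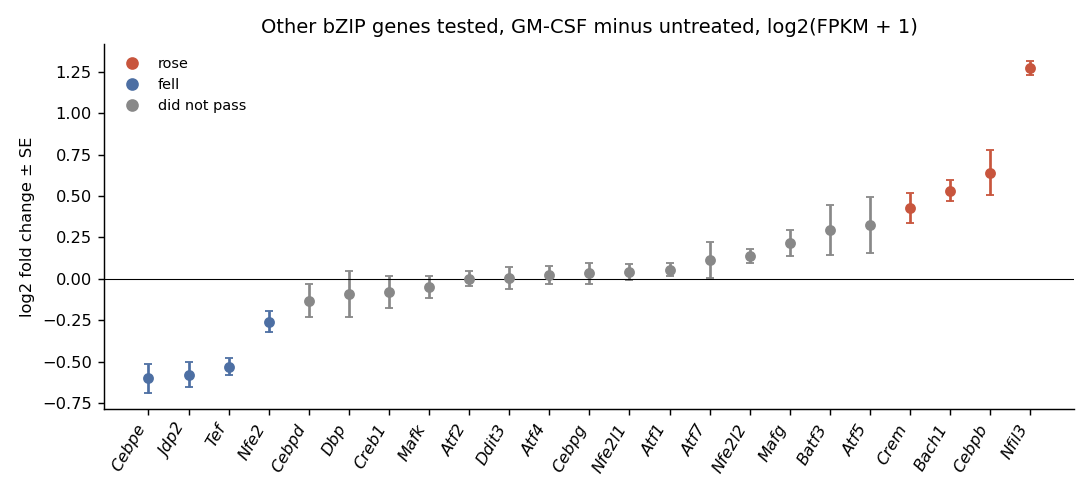
Log2 fold changes with SE (vertical axis) of the 23 other bZIP genes tested, in order of size. Nfil3 at 1.27 stands above the rest, and Cebpe (-0.60), Jdp2 (-0.58), Tef (-0.53) and Nfe2 (-0.26) are the 4 that fell.

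Jdp2 encodes a dimer partner of JUN proteins that recruits repression to AP-1 sites, and it lies between Fos and Batf. It begins 121.4 kilobases past the end of Fos (chromosome 12, 85598656 to 85639878) and ends 46.8 kilobases before Batf, with no other protein-coding RefSeq gene in the interval. RefSeq places 2 long noncoding RNA genes and 1 pseudogene there, which have no FPKM in the files. Jdp2 measured 88.1, 79.4 and 76.8 FPKM untreated and 58.5, 53.9 and 50.1 FPKM with GM-CSF, without overlap (limma adjusted p = 0.00265). Its call held in each of the 15 alternatives. The 3 neighbours thus read -0.50 for Fos, -0.58 for Jdp2 and -0.11 for Batf on the log2 scale, and Batf did not pass. Differences between these genes were not tested.

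Kinases that lead to AP-1 passed about as often as tested genes in general, of which 21.9% did. Of 26 tested on a list of 31, 1 rose, 5 fell and 20 did not pass (median -0.08). Map2k4, which encodes a kinase that activates JNK, rose from a mean of 30.2 to 50.3 FPKM (limma log2 fold change 0.72, SE 0.05, adjusted p = 0.000159). Map2k7, which encodes another such kinase and is named after its values were seen, did not pass (-0.02). Mapk3, which encodes ERK1, fell from 242.3 to 184.6 FPKM (-0.39, SE 0.04, limma adjusted p = 0.000814), and Rps6ka5, a kinase of CREB and histone H3, from 2.86 to 1.41 FPKM (-0.68, limma adjusted p = 0.00759). Braf (-0.39), Map3k5 (-0.35) and Mapk14 (-0.32), named after their values were seen, were the others that fell. Map3k5 lost its call without GM-CSF replicate 1 or 3, and Mapk14 without any 1 library other than GM-CSF replicate 2.

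Serum response factor and its cofactors act on Fos and other immediate early genes. Of 6 tested, Mkl1 (-0.47) and Elk3 (-0.33) fell and 4 did not pass, where 14.2% of all tested genes fell. The call of Mkl1 ended without GM-CSF replicate 1 or 2, and that of Elk3 without any 1 library other than untreated replicate 2. Phosphatases and ubiquitin ligases that limit AP-1 numbered 11 tested, of which 1 rose, 2 fell and 8 did not pass (median -0.03). The shares of all tested genes were 7.68% up and 14.2% down. Dusp16, a phosphatase of JNK and p38, rose from 11.5 ± 0.183 to 24.0 ± 0.774 FPKM (SD, n = 3 each; limma log2 fold change 1.00, SE 0.05, adjusted p = 4.19e-05). The ERK phosphatase gene Dusp6 fell by 0.29, a call that ended without GM-CSF replicate 1 or 2, and Dusp2 (-0.48, limma adjusted p = 0.0491) kept its call under 1 of 14 alternatives.

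Genes known from textbooks as AP-1 targets, on a list of 25, were split in direction. Of 16 tested, 5 rose, 4 fell and 7 did not pass (median 0.05), where 7.68% of all tested genes rose and 14.2% fell. Hbegf, a growth factor gene of the EGF family (2.92), the cell cycle inhibitor gene Cdkn1a (1.85) and Tgfb1 (1.07) rose most. The untreated mean of Hbegf, 0.744 FPKM, lay under the filter, which it passed only through the GM-CSF libraries. Plaur, the urokinase receptor gene (0.52), and Plau (0.52), named after their values were seen, also rose. Those that fell were Mmp13 (-0.88), Mmp9 (-0.80), Spp1 (-0.68) and Cd44 (-0.47), likewise named afterwards. The call of Mmp13 ended without untreated replicate 3 or GM-CSF replicate 1. Its GM-CSF mean, 0.503 FPKM, lay under the filter, which it passed only through the untreated libraries. Whether AP-1 acts on any of these genes in these cells was not measured.

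Immediate early genes outside AP-1 also went both ways. Of 15 tested on a list of 18, 4 rose, 2 fell and 9 did not pass (median -0.04). The shares of all tested genes were 7.68% up and 14.2% down. Ier3, an early gene linked to cell survival, rose from 9.09 to 34.5 FPKM (limma log2 fold change 1.81, SE 0.07, adjusted p = 1.70e-05) and Egr2 from 44.6 to 66.3 FPKM (0.56, SE 0.07, limma adjusted p = 0.00269). Klf10 fell by 0.46, a call that ended without untreated replicate 2 or 3. Ier5 (0.39) and Klf6 (0.37) also rose and Btg2 (-0.38) fell, named after their values were seen, and the call of Btg2 ended without untreated replicate 2 or 3 or GM-CSF replicate 3.

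Depth ran from 0.820 to 1.32 gigabases of mapped bases a library. Eosinophil markers were present: 9 of 11 were tested and their sum lay between 1504 and 1700 FPKM untreated and between 1139 and 1318 FPKM with GM-CSF, with 1 up, 4 down and 4 not passing. Alox15 (-1.54), Il5ra (-1.10) and Cebpe (-0.60) led the falls, with Epx (-0.54) the other, and Gata1 (0.35) rose, the last 2 named after their values were seen. The call of Epx ended without untreated replicate 1, 2 or 3 or GM-CSF replicate 2. Ear1 and Ear2 were under the filter. For these and the marker lists below, the shares of all tested genes were 7.68% up and 14.2% down. Markers of other cells that could accompany eosinophils moved with treatment. Summed levels ran from 134.6 to 152.8 FPKM untreated and from 128.8 to 138.2 with GM-CSF for 10 macrophage and dendritic cell markers (3 of 4 tested fell, led by Csf1r at -0.86). Most of this sum was Cd68, which did not pass (0.09), and Mertk, Fcgr1, C1qa, C1qb, Flt3 and Zbtb46 were under the filter. For 12 epithelial markers the sums ran from 91.9 to 99.0 and from 58.5 to 73.7 FPKM (4 of 10 fell, led by Krt19 at -0.81). The 8 neutrophil markers, of which Elane and Camp were at 0 in all libraries, summed to 1369 to 1485 and 1142 to 1169 FPKM, mostly Retnlg (-0.43), while Cxcr2 (2.15) rose and S100a8 (-0.77) fell. For mast cells the sums were 14.8 to 26.0 and 12.4 to 15.4 FPKM (2 of 4 fell, Kit at -0.75), for innate lymphoid and NK cells 7.55 to 9.43 and 4.68 to 5.60 FPKM (both tested fell, Il7r at -0.71 and Gzma at -0.43). Gzma kept its call in 4 of 14 alternatives and lost it without untreated replicate 1 or 2 or GM-CSF replicate 1 or 3. For stromal and endothelial cells the sums were 151.8 to 168.8 and 117.7 to 132.5 FPKM, mostly Pecam1 (-0.41), while Pdgfra (1.04) rose. The rest of that list, Pdgfrb, Col1a1, Col3a1 and Cdh5, reached 0.113 FPKM at most, so the sum says little about such cells. Among these markers Lyz2 (-0.42) kept its call in 4 of 15 alternatives and lost it without untreated replicate 1 or 3 or GM-CSF replicate 2 or 3. Krt8 (-0.68) lost its call without untreated replicate 1, 2 or 3, and Gata2 (-0.33) without untreated replicate 2 or 3 or GM-CSF replicate 1 or 2. The part of such cells in the values of Fos, Fosb and Jun was not tested.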

How the data were processed

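Per the labels' protocols, Trizol extracts of 6 cultures went into TruSeq Stranded mRNA libraries. Tools listed in the submitters' processing notes, with no order or settings, are Cufflinks, TopHat, TopHat2 and bcl2fastq 1.8.4, with the build mm10. The authors deposited FPKM for 30374 RefSeq transcripts a library. Since read counts are absent from these tables, a count test did not apply. The deposited coverage, per the file headers, served only for depth. Read numbers are approximate: they take 39.3 nt, the median of coverage times length among the lowest transcripts, as 1 read.

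FPKM was summed per symbol, genes whose mean reached 1 FPKM were kept, and log2(FPKM + 1) was tested with limma 3.58.1 in R 4.3.3 (trended empirical Bayes, two-sided, Benjamini-Hochberg over 10106 genes, threshold 0.05). This scale understates changes of low genes. The filter used the mean over all 6 libraries, so a gene under 1 FPKM in 1 group could pass through the other. Of the named genes, Irf8, Mmp13, Mzb1 and Il7r did so through the untreated group and Hbegf through the GM-CSF group. The script was tested on simulated data. Of 202 list entries, 200 matched a symbol in the files, 2 of them by synonym. Named genes are all members and, per list, up to 3 with the largest change past the threshold; others are marked. Members and lists were chosen with earlier results of these data known.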

Additional observations from a re-analysis of the deposited data

How the results depend on the processing

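Fos, Fosb, Jun, Atf3 and Maff kept their sign under the 15 alternatives run, and all 5 calls held under 2 of them, a pseudocount of 0.1 and a mean of at least 5 FPKM. Fosb passed in 11 of 15, Fos and Maff in 9, Atf3 in 8 and Jun in 4. The 3 falls and 2 rises became 0 and 0 with no filter, where more genes were tested. With median-of-ratios factors and with quantile normalization 1 member fell, Fosb and Fos respectively, and 2 rose. Without a variance trend 1 rose, Maff. Leaving out 1 library gave 0 to 3 falls, 0 to 2 rises and 1515 to 1795 changed genes, against 2212 with all libraries. Without both replicate 3 libraries 1334 genes changed, from fewer samples. Over these refits 2 members that did not pass changed sign, Junb (-0.062 to 0.15) and Fosl1 (-0.12 to 0.24). Of all changed genes 64.9% fell as deposited, 51.4% with median-of-ratios factors and 53.9% with quantile normalization.

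The labels do not say whether replicate numbers pair the cultures. Deviations from the group means correlated at -0.03, 0.05 and -0.02 across genes for numbers 1 to 3. Unlike numbers gave -0.07 (untreated 2, GM-CSF 3) to 0.09 (untreated 1, GM-CSF 3). With 3 libraries a group, such values cannot settle whether the cultures were paired. With the replicate block 1996 genes changed, 2 members rose and 2 fell. Atf3 (limma adjusted p = 0.00596), Maff (0.00920), Fos (0.00730) and Fosb (0.0158) passed, and Jun (0.0632) did not.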
